A study of Mus musculus with 4 samples.

Results

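The genes described here encode the enzymes that open the heme ring and reduce the product: the heme oxygenases Hmox1 and Hmox2 and the biliverdin reductases Blvra and Blvrb. They were taken as the probe sets whose single gene symbol was one of these names. Each of the 4 genes had 1 probe set, and no other probe set named any of them, so they are 4 of the 19938 genes with a single symbol on the array. Signals came from 4 microarrays of mouse bone marrow cells, on the B6 background, grown with 20 ng/ml GM-CSF. This cytokine drives marrow progenitors to become adherent macrophages and cells with dendritic features. After 6 days in culture, cells labelled Bach1 (-/-), the knockout of the heme-binding repressor Bach1, were given 40 µM heme (micromolar is taken here for the unit, which the labels spell with a small m) or the vehicle of 0.15 M NaCl with 10% NH4OH, and wild-type cells labelled Bach1 (+/+) were given the same heme or vehicle. All 4 groups shared the GM-CSF and the 10% serum of the medium, and the RNA was that of cells adherent 24 hours after treatment. The design text of the series instead describes GMP and MPP progenitors of fetal liver chimeras, while the labels of all 4 samples give the bone marrow cultures and were followed. Kit, a receptor that such progenitors carry, read 15.5 to 19.3 on the 4 arrays, below the median of all signals (30.96). Mpo and Prtn3, from the neutrophil list used below, reached that median on some arrays (highest signals 41.87 and 48.72), while Elane did not. Which of the descriptions holds was not tested. The sources used here do not give how the Bach1 allele was made or how many mice were used. With 1 array per group, the differences below cannot be checked against replicates and carry no p-value or error.

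Heme oxygenases cleave heme with oxygen and electrons from NADPH, and release biliverdin, carbon monoxide and iron. Biliverdin reductases then turn biliverdin into bilirubin, an antioxidant. Hmox1 is the inducible oxygenase and is a textbook target of Bach1, which sits with small Maf proteins on its upstream enhancers and leaves them when it binds heme, so that the activator Nrf2 can take its place. Hmox2 is the constitutive oxygenase. Macrophages use this route when they clear aged red blood cells.

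Median signals of the arrays lay between 30.43 and 31.39 and their brightest probe sets between 15150 and 16000, and the correlation of log2 signals over probe sets was at least 0.975 and at most 0.981 for each pair of arrays. The Bach1 probe set read 204.4 with heme and 211.3 with vehicle in the labelled knockout, against 264.3 with heme and 212 with vehicle in wild type. It did not separate the genotypes. The position of its probes relative to the deletion is unknown here, so this signal is no check of the labels. All 10 macrophage markers reached that median on at least 1 array, with summed signals between 19070 and 20570 of which Lyz2 made up 9990 to 10710, while all 8 measured T, B and NK cell markers stayed below it on every array. The defining dendritic cell genes Flt3 and Zbtb46 also stayed below it on all 4 arrays, although Itgax and the MHC class II genes did not. In such bulk cultures, fewer cells of a type and less RNA per cell cannot be told apart.

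Genes were taken to be at level where the brighter of the arrays compared reached that median, and were called higher or lower from a 2-fold difference upwards. The 4 genes were at level on every array. The robust SD of log2 differences over all genes at level, which mixes technical noise with real differences, lay between 0.252 and 0.282 in the comparisons of 2 arrays. Hmox1 spanned 5.654-fold from its lowest to its highest array and Blvrb 2.389-fold, while Blvra spanned 1.367-fold and Hmox2 1.361-fold. The spans of Hmox2 and Blvra were ordinary, at the 58.4th and 59.3rd percentile of the genes at level, and those of Blvrb and Hmox1 lay at the 96.9th and 99.7th.

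**Figure D1:**
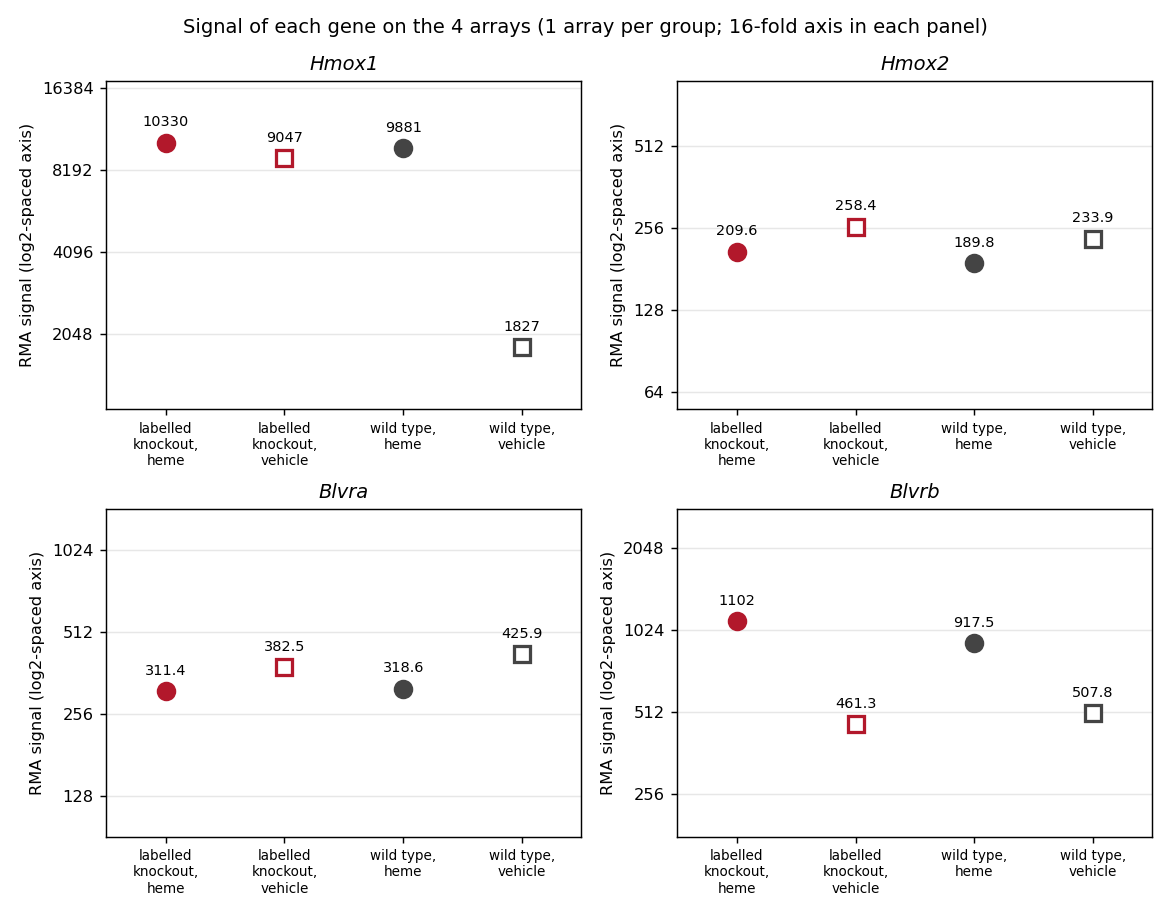
RMA signal of the 4 genes on the 4 arrays (log2-spaced axis covering 16-fold in each panel; 1 point is 1 array, circles with heme, squares with vehicle, red for the labelled knockout, grey for wild type). Hmox1 is low on the wild-type vehicle array alone (1827), Blvrb is high on both heme arrays (1102 and 917.5), and Hmox2 and Blvra move little.

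The inducible oxygenase Hmox1 was bright on 3 arrays and dimmer on 1. Its signal was 10330 with heme and 9047 with vehicle in the labelled knockout, against 9881 with heme and 1827 with vehicle in wild type. The wild-type vehicle array alone stood apart, and the labelled knockout without added heme already came within 1.092-fold of wild type with heme. Added heme therefore went with 5.408-fold more signal in wild type (log2 difference 2.44), where 9 of 10772 genes at level had a larger difference, and with 1.142-fold more in the labelled knockout (0.19), where 2846 of 10843 did. The labelled knockout was 4.951-fold higher than wild type in vehicle (log2 difference 2.31; 3 of 10859 genes lay above it) and 1.045-fold higher with heme (0.06). The heme response of the labelled knockout minus that of wild type was -2.24 on the log2 scale, and 6 of 11155 genes at level had a more negative value.

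Hmox1 was also among the brightest genes of these arrays, which bears on the 3 high values. Only 1 gene was brighter on the labelled knockout heme array, 5 on the labelled knockout vehicle array and 3 on the wild-type heme array, while 208 were brighter on the wild-type vehicle array. The 3 high values lay 0.63 to 0.82 below the brightest probe set of their array on the log2 scale. A ceiling of the signal and equal expression cannot be told apart at these 3 arrays. Among the 200 genes that made up the brightest 1% in each comparison, 1 was 2-fold higher and 1 lower with heme in wild type, and Hmox1 was the higher one. The log2 differences of the others lay between -1.13 and 0.80. In the labelled knockout, 1 of the 200 brightest genes was 2-fold higher with heme and 0 were lower, and in vehicle 3 were higher and 5 lower in the labelled knockout than in wild type. These sets of 200 reach down to about the lowest signal of Hmox1 itself. Among the few genes at least as bright as Hmox1 on their brighter array, 5 with Hmox1 for heme in wild type and 6 for the genotypes in vehicle, Hmox1 alone passed 2-fold. The others lay between -0.20 and 0.18 for heme in wild type and between -0.14 and 0.17 for the labelled knockout minus wild type in vehicle.

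The constitutive oxygenase Hmox2 differed little between the arrays. It read 209.6 with heme and 258.4 with vehicle in the labelled knockout, against 189.8 with heme and 233.9 with vehicle in wild type. Both heme arrays lay below both vehicle arrays, as at 19.5% of genes at level, by a log2 difference of -0.30 in each genotype (1.233-fold and 1.232-fold lower). These differences were near 1 robust SD: 1417 of 10843 genes at level in the labelled knockout and 1766 of 10772 in wild type had a more negative one. The labelled knockout was 1.105-fold higher than wild type in vehicle and 1.104-fold higher with heme, and the heme responses of the genotypes differed by less than 0.01 on the log2 scale.

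Blvra, which reduces the biliverdin that heme oxygenase releases, was close to Hmox2 in its pattern. It read 311.4 with heme and 382.5 with vehicle in the labelled knockout, against 318.6 with heme and 425.9 with vehicle in wild type. Both heme arrays lay below both vehicle arrays here too, 1.228-fold in the labelled knockout (log2 difference -0.30) and 1.337-fold in wild type (-0.42). That order of arrays was seen at 19.5% of genes at level. A more negative difference was found at 1465 of 10843 genes in the labelled knockout and 1050 of 10772 in wild type. Between genotypes the log2 difference, labelled knockout minus wild type, was -0.15 in vehicle and -0.03 with heme. After each gene was centred on its own mean, the profiles of Hmox2 and Blvra lay 0.13 apart (root mean square, log2 units), against 0.69 to 1.21 for the other pairs among the 4 genes. Such closeness was not particular to this pair. Of 11155 genes at level, 6743 lay within 0.25 of Hmox2 and 6216 within 0.25 of Blvra.

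Blvrb, a flavin reductase that also reduces other biliverdin isomers and is abundant in human red blood cells, was the only other gene of the 4 past 2-fold. It read 1102 with heme and 461.3 with vehicle in the labelled knockout, and 917.5 with heme and 507.8 with vehicle in wild type. Both heme arrays lay above both vehicle arrays, as at 21.4% of genes at level, and the vehicle arrays differed by 1.101-fold. With heme, Blvrb was 2.389-fold higher in the labelled knockout (log2 difference 1.26; 61 of 10843 genes at level lay above it) and 1.807-fold higher in wild type (0.85; 198 of 10772), which is short of the 2-fold rule. The mean of both heme responses was 1.06, or 2.078-fold. The labelled knockout minus wild type was -0.14 in vehicle and 0.26 with heme, each within about 1 robust SD, and the heme response was larger in the labelled knockout by 0.40, a value that 1486 of 11155 genes exceeded.

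Other cell types could carry some of these signals. The erythroid list, of interest beside Blvrb, held 6 measured genes of 11, with summed signals of 140.9 with heme and 130.6 with vehicle in the labelled knockout and of 142.6 with heme and 126.2 with vehicle in wild type. Its defining factors Klf1 and Gata1 stayed below the median of all signals on all 4 arrays (11.98 to 13.96 and 16.1 to 19.11), as did Tfr2. The other 3, Epor, Alas2 and Slc4a1, reached it on at least 1 array, with highest signals of 35.69, 33.03 and 33.05. The summed signal of the 10 neutrophil markers was 5753 with heme and 4371 with vehicle in the labelled knockout, and 7274 with heme and 5244 with vehicle in wild type. Most of that difference was S100a8, which read 4381 with heme and 3213 with vehicle in the labelled knockout, and 5613 with heme and 4243 with vehicle in wild type. None of the 10 was 2-fold higher with heme in the labelled knockout, where Mpo (-0.19) and Prtn3 (-0.06) lay below 0, while Cxcr2, Retnlg and Prtn3 were in wild type, Cxcr2 with 208.5 with heme against 68.71 with vehicle. Elane was below the median on all arrays. The summed signal of the 8 dendritic cell markers was 2117 with heme and 2702 with vehicle in the labelled knockout and 5619 with heme and 7211 with vehicle in wild type. None of the 8 passed 2-fold with heme in either genotype: Itgax came nearest (-0.83 in the labelled knockout and -0.86 in wild type), and Ccr7 lay above 0 in both (0.34 and 0.40). In vehicle, Cd74 (-1.95), H2-Ab1 (-1.67), Ciita (-1.45) and Ccr7 (-1.37) were lower in the labelled knockout than in wild type. The 5 red pulp macrophage markers summed to 1815 with heme and 873.3 with vehicle in the labelled knockout. In wild type they summed to 859.7 with heme and 108.8 with vehicle, lowest on the same array as Hmox1. Of the 5, Spic, Treml4 and Slc40a1 reached the median on at least 1 array, while Vcam1 and Cd163 never did. Spic and Slc40a1 are also in the list of Nrf2 and Bach1 targets below. The part of neutrophils, dendritic cells and red pulp macrophages in these differences was not tested.

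The upstream sequence of both reductases is shown because their heme arrays lay on opposite sides of their vehicle arrays. The heme differences of Blvra were small, at -1.07 robust SDs in the labelled knockout and -1.49 in wild type. Hmox2 lay on the same side as Blvra, and its windows are not printed. RefSeq promoter windows (GRCm38.p6, 250 bases before to 50 after a start site) were listed for 3 of the 4 genes: 1 for Blvra, 2 for Blvrb and 3 for Hmox2. Capitals mark matches on either strand to any of 6 motifs. The first was most of the Maf recognition element, which Bach1 and Nrf2 bind with small Maf partners: the flank TGC and then an AP-1 type core with G at its centre, without the flank on the far side. The core of the antioxidant response element was searched as TGACNNNGC. An AP-1 type core, which that first motif contains, was searched as TGANTCA. The E-box was searched as CACGTG, and the TATA box by its usual letters TATAAA. The GC box GGGCGG was added after the windows had been seen. The stretches below end just before the gene begins.
Blvrb, chr7:27447728-27447977, plus strand: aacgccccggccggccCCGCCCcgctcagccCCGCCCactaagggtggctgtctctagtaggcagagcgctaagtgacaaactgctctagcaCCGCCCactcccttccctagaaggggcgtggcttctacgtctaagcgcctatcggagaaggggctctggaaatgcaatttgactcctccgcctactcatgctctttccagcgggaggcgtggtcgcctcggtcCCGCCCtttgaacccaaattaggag
Blvra, chr2:127070407-127070628, plus strand: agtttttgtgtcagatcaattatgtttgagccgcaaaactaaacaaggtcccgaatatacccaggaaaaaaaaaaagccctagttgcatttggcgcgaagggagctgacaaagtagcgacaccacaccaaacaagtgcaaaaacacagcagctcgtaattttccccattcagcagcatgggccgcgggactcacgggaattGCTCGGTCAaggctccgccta

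The whole Blvrb window at the start of the gene held 5 GC boxes, 4 of them in the stretch shown, and no match to the other 5 motifs. Its GC content was 63% with 20 CpG pairs, against medians of 52.7% and 7 over all 32851 windows. The second Blvrb window had 50% with 5 pairs and the Blvra window 51% with 16. The 3 Hmox2 windows had 47%, 54.7% and 64% with 0, 18 and 29 pairs, so high values were not particular to Blvrb. The second Blvrb window held no match to any motif. The Blvra window held 1 match, GCTCGGTCA, which is the antioxidant response element core on the minus strand and begins 49 bases before the start site. In the 3 Hmox2 windows the GC box was the only motif matched, 0, 1 and 4 times. This stretch of the Maf recognition element was found in 0.155% of all windows, the antioxidant core in 12.4%, the AP-1 type core in 7.81%, the E-box in 7.15%, the TATA box in 13.6% and the GC box in 35.7%. These matches describe letters in short windows, and more distant enhancers were not searched.

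Over all genes, 1.17% of those at level were 2-fold higher and 0.891% lower with heme in wild type, where 1 of the 4 genes, Hmox1, was higher and 0 were lower. With heme in the labelled knockout, 1.2% were higher and 0.452% lower, and 1 of the 4, Blvrb, was higher. In vehicle, 0.525% of genes were higher and 1.14% lower in the labelled knockout than in wild type, and 1 of the 4, Hmox1, was higher. With heme in both cultures, 0.519% were higher and 0.973% lower in the labelled knockout, and 0 of the 4 were on either side. The heme response of the labelled knockout minus that of wild type was 2-fold or more and positive at 1.17% of genes. It was 2-fold or more and negative at 0.879%, with Hmox1 among these. The sign is that of the subtraction, so a positive value can also be a weaker fall with heme in the labelled knockout. The comparisons of wild-type heme and of vehicle genotypes share the wild-type vehicle array, so both large differences of Hmox1 rest on that 1 array. The difference between its heme responses, -2.24, rests on that array too and is no separate result. Of the macrophage markers, C1qa and Fcgr1 stood apart on the same array, in the other direction. C1qa, a complement subunit, read 31.86 with heme and 30.63 with vehicle in the labelled knockout, against 48.86 with heme and 212.9 with vehicle in wild type. Fcgr1, an Fc receptor, read 59.68 with heme and 84.71 with vehicle in the labelled knockout, against 83.27 with heme and 237 with vehicle in wild type. The other 8 macrophage markers differed by less than 2-fold in these comparisons, and the part of such a shift in the values of Hmox1 was not tested.

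**Figure D2:**
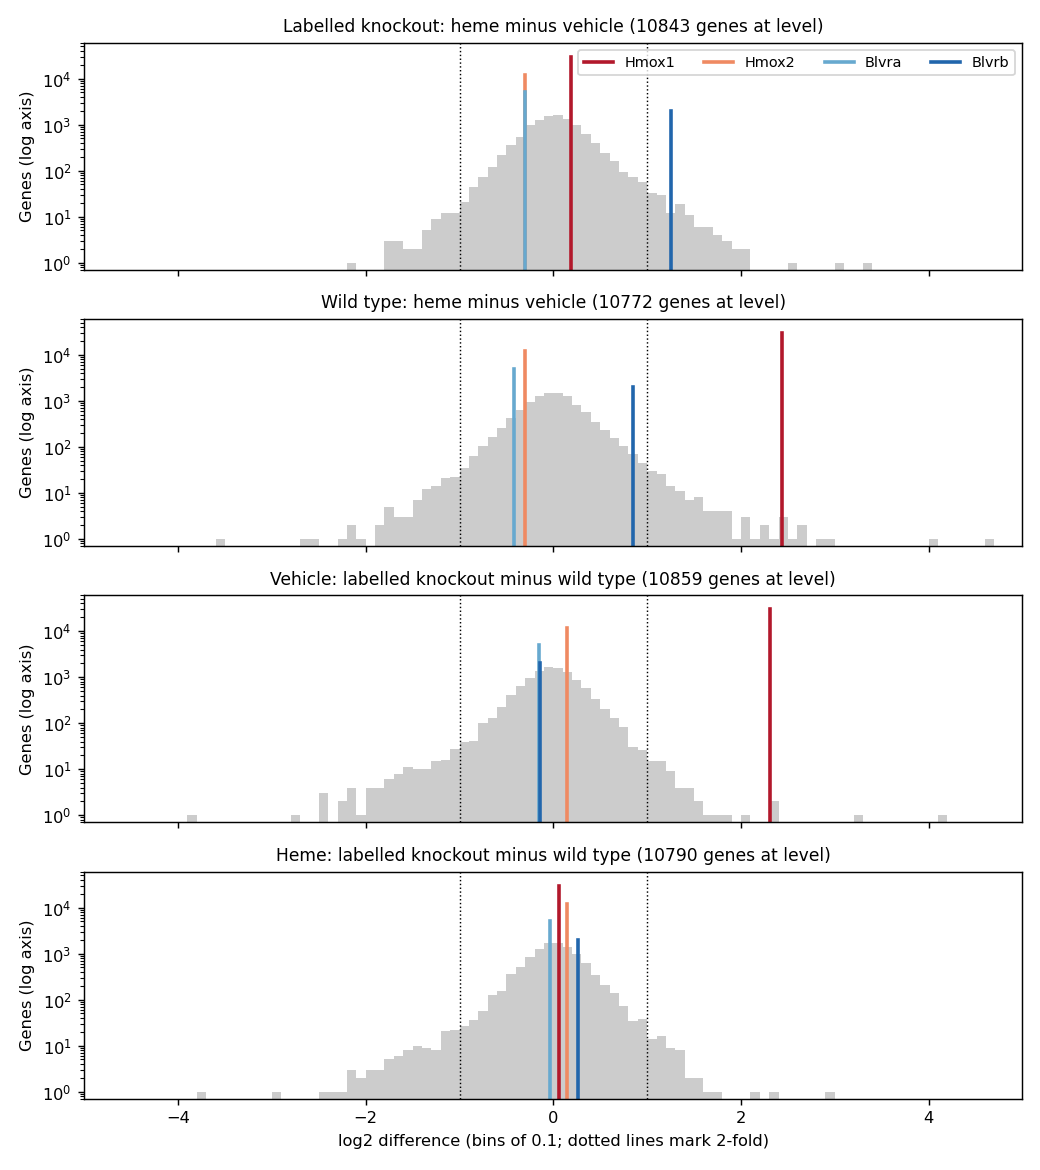
Log2 differences of all genes at level (grey bars, bins of 0.1, log axis of gene counts) with the 4 genes as coloured lines; dotted lines mark 2-fold, and line heights only keep overlapping lines apart. Hmox1 lies far right for wild type with heme (2.44) and for the genotypes in vehicle (2.31), while Blvrb lies right for both heme responses (1.26 in the labelled knockout and 0.85 in wild type).

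The heme responses of the labelled knockout and of wild type share no array, so they can be set side by side. Hmox1 and Blvrb had both heme arrays above both vehicle arrays, as did 21.4% of 11155 genes at level, and Hmox2 and Blvra had both below, as did 19.5%, so the order of the arrays alone does not single them out. None of the 4 genes had both labelled knockout arrays above both wild-type arrays, as 17.1% of genes had, or below them, as 18% had. For Blvrb, 78 genes (0.699%) had both responses at least as large as its smaller one, 0.85. For Hmox2 and Blvra, 555 (4.98%) and 568 (5.09%) genes were lower by at least their smaller response in both genotypes. In all, 45 genes (0.403%) were 2-fold higher with heme in both genotypes, and none of the 4 genes was among them.

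**Figure D3:**
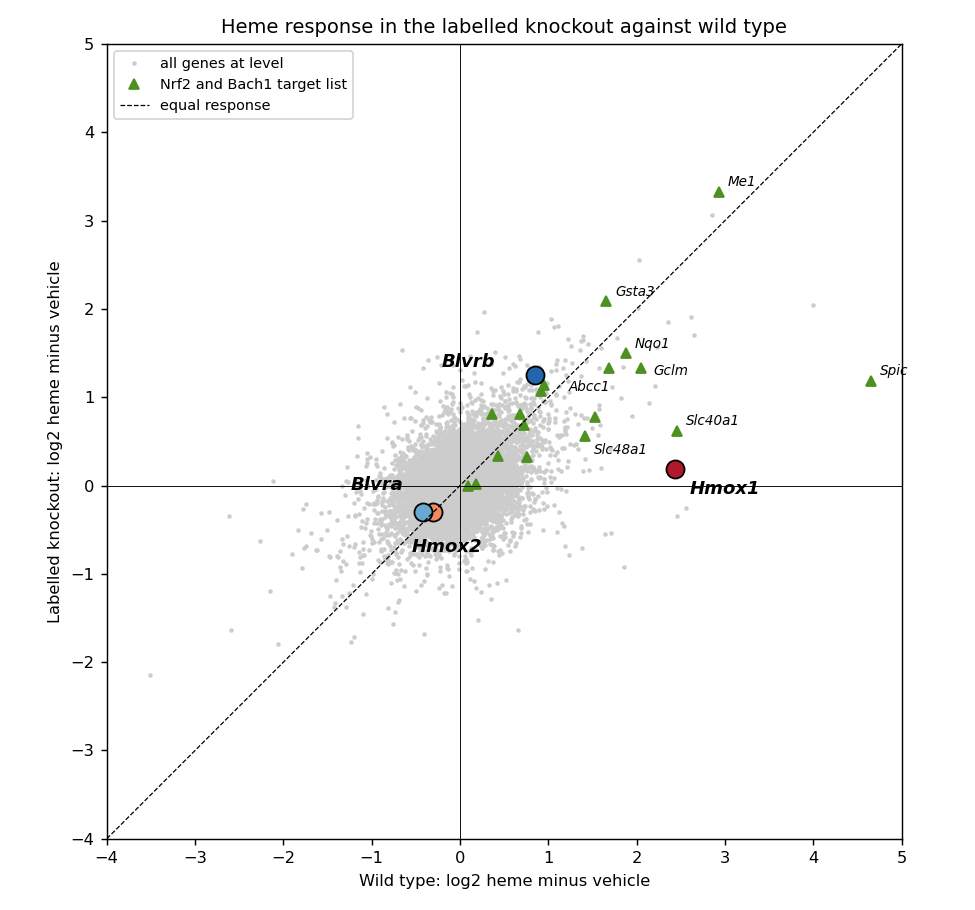
Heme response (log2 heme minus vehicle) in the labelled knockout (vertical axis) against wild type (horizontal axis) for all 11155 genes at level (grey), the list of Nrf2 and Bach1 targets (green triangles) and the 4 genes (large circles); the dashed line marks equal responses. Hmox1 lies far below the line (2.44 and 0.19), near Slc40a1 (2.46 and 0.62), whereas Blvrb lies just above it (0.85 and 1.26).

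The genes whose pattern over the 4 arrays was most like that of Hmox1 were Nos2, the inducible nitric oxide synthase, Sec24d, a coat protein of secretory vesicles, the neutrophil gene Retnlg, the scavenger receptor Marco and the heme transporter Slc48a1. Their centred profiles lay 0.40 to 0.49 from that of Hmox1 (root mean square, log2 units), and 0 of the 11155 genes at level lay within 0.25. Nos2 read 67.26 with heme and 97.76 with vehicle in the labelled knockout, against 80.21 with heme and 24.44 with vehicle in wild type. Slc48a1 read 1242 with heme and 845 with vehicle in the labelled knockout, against 1113 with heme and 417.7 with vehicle in wild type. All 5 were lowest on the wild-type vehicle array, as Hmox1 was, but of the 5 only Nos2 was not higher with heme in the labelled knockout (log2 difference -0.54). The 5 were picked for closeness to Hmox1 on these same arrays, so the shared low array follows from the choice. With 32 added to each signal before log2, which damps dim genes, the 5 nearest were the iron exporter Slc40a1, Marco, Slc48a1, Spic and Gclm, so 2 of the 5 were kept.

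In log2 units the pattern of Blvrb had nearer neighbours. Such distances tend to be larger for a wide profile, and Hmox1 spanned 2.5 on the log2 scale against 1.26 for Blvrb. The 5 nearest were Casp1, the protease that matures interleukin-1, the proteasome subunits Psmd12, Psmd14 and Psmb3, and Chpf2, an enzyme of chondroitin synthesis, at distances of 0.03 to 0.05, and 173 genes lay within 0.25. Psmd12 read 667.8 with heme and 272.4 with vehicle in the labelled knockout, and 570.6 with heme and 312.4 with vehicle in wild type. Casp1 read 588.9 with heme and 252.7 with vehicle in the labelled knockout, and 476.2 with heme and 268.6 with vehicle in wild type. These genes were higher on both heme arrays and near equal between the vehicle arrays, which follows from picking them for closeness to Blvrb. Flat profiles have many neighbours, and 6743 genes lay within 0.25 of Hmox2 and 6216 within 0.25 of Blvra, so no nearest genes are named for them.

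**Figure D4:**
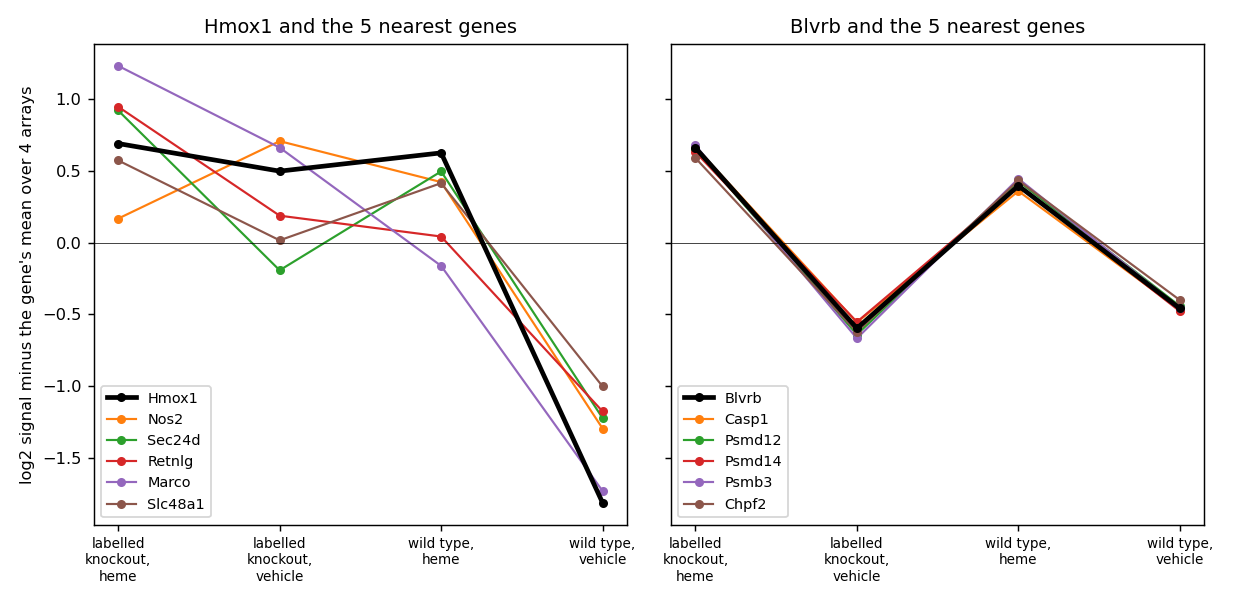
Log2 signal minus the mean of each gene over the 4 arrays, for Hmox1 (left, black) and Blvrb (right, black) with the 5 nearest genes in colour; each point is 1 array. The genes around Hmox1 share its low wild-type vehicle array and spread widely on the other 3, while those around Blvrb overlie it (distances of 0.03 to 0.05). All were picked for closeness on these same arrays, so the shared shapes are no separate result.

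Among other genes known in the field as Nrf2 or Bach1 targets, 8 of 18 at level were 2-fold higher after heme in the labelled knockout and 9 of 18 in wild type. None was lower in either genotype, and 6 were higher in both: Nqo1, Gclm, Gsta3, Spic, Me1 and Abcc1. Some vehicle signals of these 6 lay below the median of all signals, so the sizes of those differences are uncertain. In the labelled knockout these were Nqo1 (14.77), Me1 (15.93) and Gsta3 (28.61). In wild type they were Nqo1 (18.75), Me1 (14.57), Gsta3 (21.13) and Spic (17.02). The list medians were 0.81 in the labelled knockout and 1.18 in wild type, beside medians of 0.017 and -0.008 over all genes at level. In vehicle, 3 of the 15 at level were higher in the labelled knockout: Slc40a1 (log2 difference 3.28), Spic (4.13) and Slc48a1 (1.02). These 3 had heme responses that were smaller in the labelled knockout (0.62 against 2.46 in wild type for Slc40a1, 1.19 against 4.66 for Spic, 0.56 against 1.41 for Slc48a1), as Hmox1 had. The vehicle difference that picked these genes is part of that comparison, since both use the same vehicle arrays. The smaller responses are therefore no separate result. Gsta3, a glutathione transferase, instead read 121.6 with heme and 28.61 with vehicle in the labelled knockout, and 66.47 with heme and 21.13 with vehicle in wild type, which is the order of arrays seen for Blvrb except that its vehicle arrays stood the other way round. Catalase, Cat, was also close to Blvrb, with heme responses of 1.08 in the labelled knockout and 0.91 in wild type. Several genes of this list were known from earlier results of these data.

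Of the genes that could feed electrons to heme oxygenase, 6 of 8 listed were measured, and 1, Cyb5a, which encodes the electron carrier cytochrome b5, passed 2-fold, for heme in wild type. Cyb5a read 865.5 with heme and 532.7 with vehicle in the labelled knockout, against 828 with heme and 329 with vehicle in wild type, lowest on the same array as Hmox1. The reductase Por, the main electron donor of both oxygenases, was not analysed here. Of 11 measured genes that supply NADPH, which both steps of heme breakdown consume, the malic enzyme Me1 alone was 2-fold higher with heme, in both genotypes (log2 difference 3.33 in the labelled knockout and 2.93 in wild type). The vehicle signals of Me1, 15.93 in the labelled knockout and 14.57 in wild type, lay below the median of all signals. The sizes of its differences are therefore uncertain. The pentose phosphate enzymes Pgd (0.54 and 0.49) and Taldo1 (0.68 and 0.37) were short of 2-fold in the labelled knockout and in wild type. The list median was 0.22 in the labelled knockout and 0.04 in wild type.

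For the products, the iron exporter Slc40a1 was the only gene of 12 at level that handle released iron to pass 2-fold upwards with heme in wild type, and 0 of 12 did so in the labelled knockout. It read 786.9 with heme and 511.6 with vehicle in the labelled knockout, against 289.7 with heme and 52.7 with vehicle in wild type. The ferritin heavy chain Fth1, which stores iron, was among the brightest genes and read 10030 with heme and 9927 with vehicle in the labelled knockout, against 9963 with heme and 8809 with vehicle in wild type. Transferrin receptor Tfrc, the iron importer, was 2-fold lower with heme in wild type (-1.11) and short of that in the labelled knockout (-0.88). Among genes that handle bilirubin and its relatives, Abcc1, an exporter of conjugates, was 2-fold higher with heme in both genotypes (1.34 in the labelled knockout and 1.69 in wild type), Abcc3 only in wild type past that size (0.55 and 1.12), and the uptake carrier Slco2b1 was lower in wild type (-1.90) and short of 2-fold in the labelled knockout (-0.77). The bilirubin-conjugating enzyme Ugt1a1 was not analysed here.

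Of the genes of heme entry and trafficking, heme went with 2-fold higher signals at 2 of 9 at level in the labelled knockout, Hp and Abcb6, and at 2 of 8 in wild type, Hp and Slc48a1. Abcb6 read 57.96 with heme and 25.32 with vehicle in the labelled knockout, the latter below the median of all signals. Hp encodes haptoglobin, which binds free hemoglobin, and read 389.8 with heme and 125 with vehicle in the labelled knockout, and 369.8 with heme and 143.4 with vehicle in wild type. The heme exporter Flvcr1 was short of 2-fold in both (-0.16 in the labelled knockout and -0.45 in wild type). None of the 10 factors at level that bind Maf recognition elements or regulate them, Bach1, Nfe2l2 (which encodes Nrf2), Keap1 and the small Mafs among them, was 2-fold higher or lower in any of the 5 comparisons. Over all genes at level, 0.452% to 1.2% passed 2-fold on either side of a comparison, so this does not set the 10 factors apart. The largest heme responses among them were those of Keap1 (0.60) and Maff (0.36) in wild type, and of Mafg (0.31) and Nfe2l1 (0.30) in the labelled knockout.

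**Figure D5:**
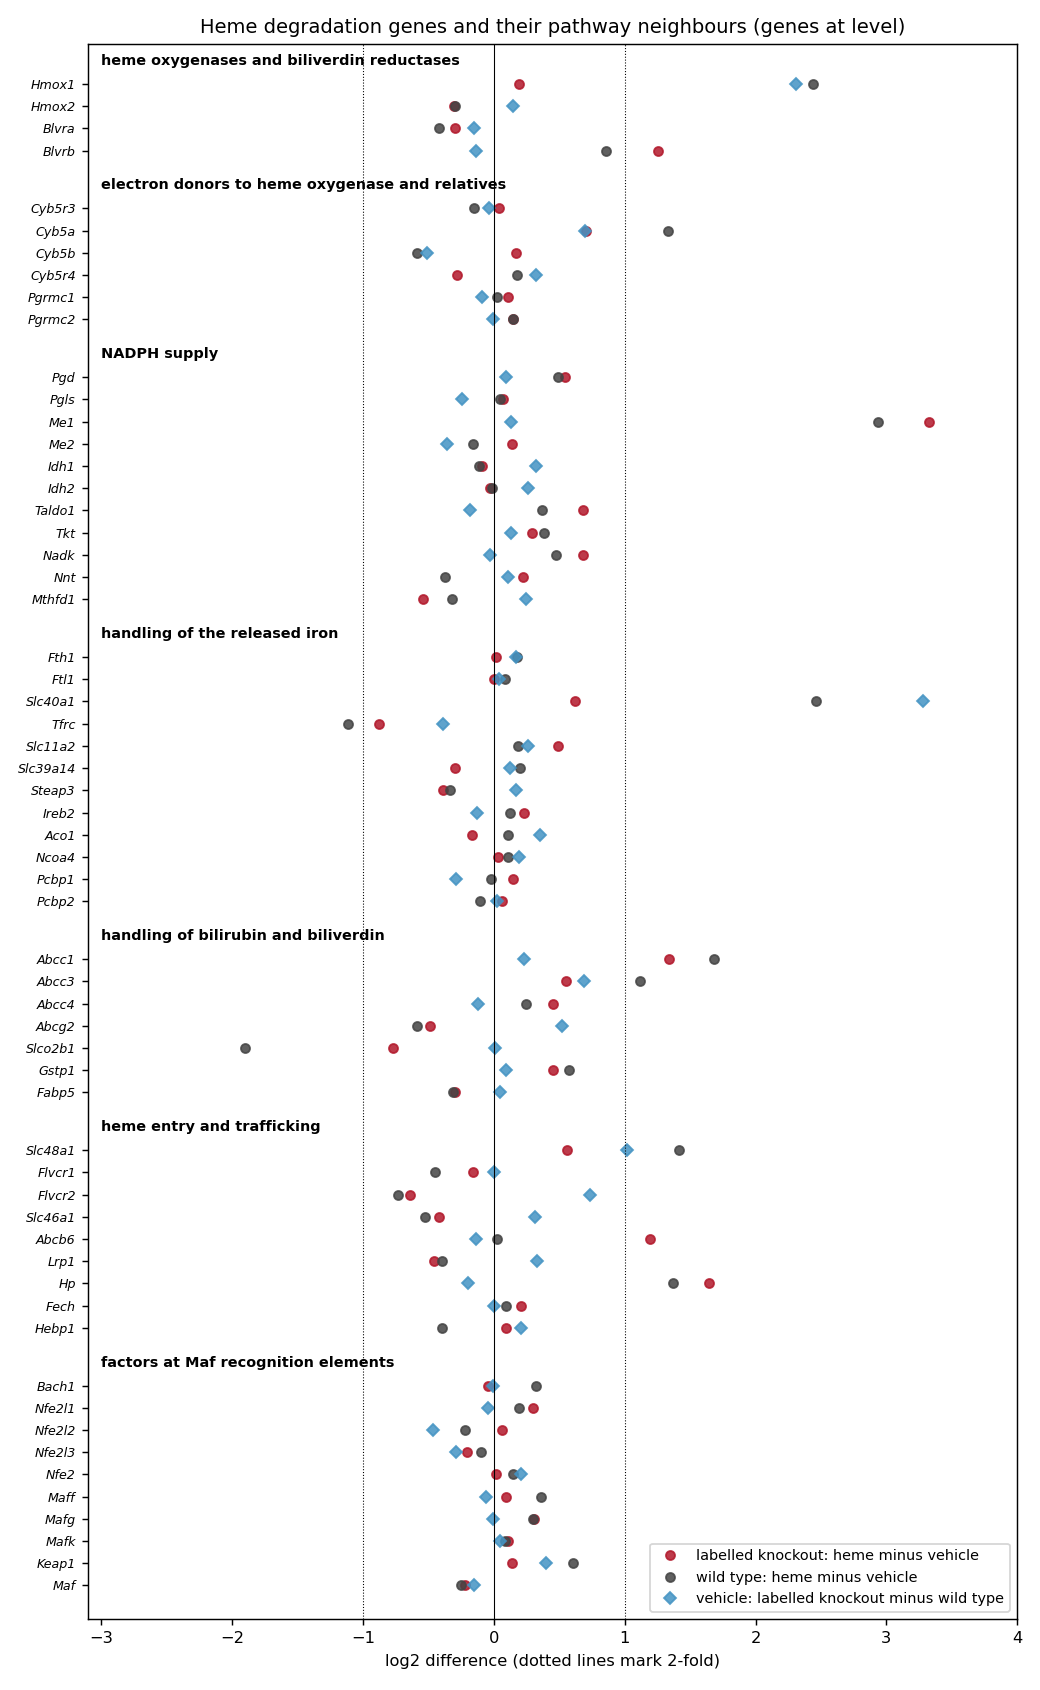
Log2 differences of the 4 genes and of their pathway neighbours at level on some array: heme minus vehicle in the labelled knockout (red) and in wild type (dark grey), and labelled knockout minus wild type in vehicle (blue diamonds); dotted lines mark 2-fold. Hmox1, Slc40a1 and Slc48a1 have blue and dark grey points past 2-fold with the red point inside it, whereas Me1, Abcc1 and Hp have both heme points past it.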

How the data were processed

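Total RNA was labelled as biotinylated cRNA and hybridised to 1 mouse array per group. The authors deposited RMA output, per the submitters' processing notes, as intensity on a linear scale; the program version, genome build and detection calls are not given in the sources used here. Sample labels, which give GM-CSF cultures, were followed where the design text names sorted progenitors. Without background calls, a low signal cannot be told from background, and the number of arrays limits the precision.

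Signals were taken to log2 with no added scaling. Of 35556 probe sets, the platform annotation gave a single symbol to 21789, several to 1621 and did not list 12146. Symbols were updated by Entrez number through RefSeq (21698 matched), and the brightest probe set per gene was used, which left 19938 genes. Differences are between single arrays, called at 2-fold where the brighter array reached the median signal (30.96). The genes and lists were chosen with earlier results of these data known. From the lists, genes past 2-fold or else the largest differences were named, at most 4 per list and comparison. Fth1, Flvcr1, Pgd, Taldo1, Cat, Gsta3, Kit and the cell type markers and factors named beyond that rule were chosen after their values were seen. The nearest genes were the 5 with the smallest root mean square distance over 4 arrays, leaving out predicted genes and small RNAs. Alternatives were 32 added before log2, repeated quantile normalization, lowess centring, the mean of probe sets, other fold rules and level filters. A comparison of protein sequences was planned and not run. The calling step was run on simulated data holding shifts larger than the fold rule. That run checks the code, not how reliable calls from single arrays are. The software was Python 3.11.15 with matplotlib 3.10.9, statsmodels 0.14.6, pandas 2.3.3 and numpy 2.4.6.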

Additional observations from a re-analysis of the deposited data

Results flagged for a closer look

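Blvrb stood out because its genotype difference had opposite signs under the 2 treatments: labelled knockout minus wild type was 0.26 with heme and -0.14 with vehicle, which makes the heme response larger in the labelled knockout by 0.40 on the log2 scale. With 1 array per group this difference was not tested. Opposite signs were seen at 4754 of 11155 genes at level (42.6%), so the sign alone does not set Blvrb apart.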

How the results depend on the processing

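The 20 log2 differences of the 4 genes were recomputed under 4 settings: 32 added before log2, quantile normalization applied again, lowess centring on level and the mean of probe sets. All 80 values moved by less than the robust SD of their comparison, by at most 0.07, and no called difference changed sign. The number of the 4 genes past the fold rule changed at 2 places. With a 1.5-fold rule it was 2 for heme in wild type, where Blvrb joined Hmox1, and with a 3-fold rule it was 0 for heme in the labelled knockout, where Blvrb dropped out. The level filters changed no count, since the 4 genes are bright. The mean of probe sets is no separate check, because each of the 4 genes has 1 probe set. Counted on the given strand alone, 0.0731% of windows held the stretch of the Maf recognition element, 6.38% the antioxidant core, 8.32% the TATA box and 23.4% the GC box. No paired analysis was possible because the labels give no replicate numbers that pair the arrays. A fit of heme with genotype as a block was not run: its only residual would be the difference between the heme responses, which is given above for the 4 genes. No array could be left out, since each group held 1.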
